A study of Homo sapiens with 9 samples.

Results

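The genes examined here are the 50 named genes of the methionine cycle, of methionine salvage, of folate, serine and glycine metabolism and of polyamine metabolism that had a row in the table of 27800 gene symbols. They were chosen by symbol, with no measured value in the rule, and sorted into 14 roles. RNA was measured by sequencing of total RNA from cells of Huh7, an established line of human hepatocellular carcinoma grown in DMEM with 10% FBS. The 9 libraries fell into 3 groups of 3: cells given 5 uM FIDAS-5 for 48 h, cells given 0.5 uM JQ1 for 48 h, and cells given vehicle, whose composition and time are not stated. FIDAS-5 inhibits MAT2A, the enzyme that makes S-adenosylmethionine in cells outside the normal liver and in liver tumours, and JQ1 displaces BET bromodomain proteins from acetylated histones. All groups share this single line, each compound was given at 1 dose and 1 time, and nothing in the labels shows that replicate libraries are separate cultures. P-values therefore reflect the spread between libraries of a group, which may be only technical.

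S-adenosylmethionine (SAM), made from methionine, gives its methyl group to many acceptors and becomes S-adenosylhomocysteine (SAH), which AHCY splits into adenosine and homocysteine. Homocysteine is methylated again to methionine, with a methyl group from folate (MTR, kept active by MTRR) or from betaine (BHMT, which the liver is known for), or it enters transsulfuration towards cysteine. Decarboxylated SAM donates the aminopropyl group of spermidine and spermine, and the by-product of that step is returned to methionine by the salvage pathway. Serine, made from glucose through PHGDH, PSAT1 and PSPH, and glycine feed carbon units into folate, in the mitochondrion (SHMT2, MTHFD2, MTHFD1L) and in the cytosol (SHMT1, MTHFD1). The cycles therefore meet at methionine and homocysteine, the step on which FIDAS-5 acts lying between them and polyamine synthesis.

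The values were TPM (transcripts per 1000000, scaled for transcript length by the authors), which keep no read counts, so depth is unknown and no counting interval can be given. Differences are log2 fold changes of TPM + 1, which understate the change of genes at a few TPM. A gene is called when limma's moderated test gave a Benjamini-Hochberg adjusted p under 0.05 over the 13573 genes that reached 1 TPM in at least 3 libraries. Of the 50 genes, 47 met that filter. GNMT, ALDH1L1 and FTCD, enzymes abundant in normal liver, did not, their highest values in any library being 0.264, 0.0229 and 0.239 TPM. Over all 9 libraries, 6 genes had a median of at least 100 TPM, 27 lay between 10 and 100 TPM, 13 between 1 and 10 TPM and 4 under 1 TPM. Together the 50 genes held 1707 to 2036 TPM in FIDAS-5 libraries, 1955 to 2448 TPM in JQ1 libraries and 1901 to 2089 TPM in vehicle libraries.

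Libraries of a group correlated at Pearson 0.952 to 0.976 across genes, and none were identical. All 10 hepatocyte and hepatoma markers were at 1 TPM or more in every library, as the labelled cell type would have. Their summed level was 4620 to 6605 TPM with FIDAS-5, 10590 to 15000 TPM with JQ1 and 5147 to 5912 TPM with vehicle. Of 7 leukocyte markers 4 reached 1 TPM in every library and the sum was 253 to 312 TPM with FIDAS-5, 19.2 to 28.1 TPM with JQ1 and 115 to 141 TPM with vehicle, most of it LYZ. PTPRC, the defining leukocyte gene, averaged 0.439 TPM with FIDAS-5, 0.445 TPM with JQ1 and 0.673 TPM with vehicle. The sum of 7 fibroblast and endothelial markers was 16.7 to 17.8 TPM with FIDAS-5, 2.70 to 3.22 TPM with JQ1 and 7.80 to 10.4 TPM with vehicle, most of it PECAM1. That of 5 cholangiocyte markers was 24.4 to 39.6 TPM with FIDAS-5, 31.9 to 48.6 TPM with JQ1 and 26.3 to 32.3 TPM with vehicle, and CDH5 and KRT7 were listed at 0 in all 9 libraries. The part of these markers in the results below was not tested, and in bulk RNA fewer cells of a type and less RNA per cell cannot be told apart. Protein-coding genes held 33.1%, 28.6% and 28.3% of TPM in FIDAS-5 replicates 1, 2 and 3. The shares were 34.0%, 33.45% and 27.6% in JQ1 replicates and 30.3%, 32.1% and 30.8% in vehicle replicates, in the same order. TPM have a fixed total, so the level of a gene and the sums given here also depend on this share. JQ1 replicate 3, with the lowest share, gave the lowest JQ1 value of 35 of the 47 tested genes. Its departures from the group mean correlated with transcript GC content across genes at Spearman 0.641, against -0.655 in JQ1 replicate 1, 0.555 in FIDAS-5 replicate 3 and -0.506 in FIDAS-5 replicate 1. The fold changes carried a GC trend too. Over 13042 tested genes they correlated with GC content at Spearman 0.372 with FIDAS-5 and 0.215 with JQ1 against vehicle. Between the compounds the correlation was -0.0448. Median GC content was 51.6% in the set and 49.4% over all these genes. The cause of the trend was not tested. HEXIM1, a gene known to rise with BET inhibition, averaged 23.3 ± 4.40 TPM with JQ1 and 6.16 ± 0.153 TPM with vehicle (SD, n = 3 each; log2 fold change 1.75 with SE 0.18, adjusted p = 0.00013).

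With FIDAS-5, 6 of the 47 tested genes changed against vehicle. NNMT and SMOX rose, and AHCY, MTHFD1, SHMT1 and MTHFD1L fell. Of all tested genes 12.6% rose and 7.60% fell, 20.2% in all, and the 6 genes are 12.8% of those tested, so the share was below the background. That order depended on the setting: the share of the set was above that of all genes with the GC trend removed (38.3% against 33.9%), with protein-coding genes rescaled alone (34.0% against 31.3%), with no filter on low values (14.0% against 13.1%) and without JQ1 replicate 3 (25.5% against 24.7%). The median log2 fold change of the 47 was -0.02, against -0.02 over all genes. Under quantile normalization the split of all calls was 1904 that rose and 1756 that fell, 52.0% rising in place of 62.4%. The count of the 47 that rose was 1 without FIDAS-5 replicate 1, 2 or 3, 4 without vehicle replicate 1 and 3 without vehicle replicate 2 or JQ1 replicate 3. The count that fell was 1 without FIDAS-5 replicate 1 or 2 or vehicle replicate 2 or 3, 2 without FIDAS-5 replicate 3 or JQ1 replicate 2, and 9 without JQ1 replicate 3. Every FIDAS-5 library was above every vehicle library for 14 of the 47 and below for 10, where all tested genes gave 20.9% and 18.4%.

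With JQ1, 29 of the 47 changed against vehicle, 13 rising and 16 falling. Over all tested genes 19.0% rose, 19.4% fell and 38.5% were called either way, against 61.7% of the 47. For 3 of the 29 (BHMT, NNMT and ALDH1L2) the lower group averaged under 1 TPM, so that they passed the filter through the libraries where they are high; without them 12 rose and 14 fell of 44 (59.1%). Among the 5026 tested genes with a median of at least 10 TPM, 42.1% were called, against 21 of the 33 such genes in the set (63.6%). The median log2 fold change of the 47 was -0.21, against -0.01 over all genes. All JQ1 libraries lay above all vehicle libraries for 15 genes and below for 18, where all tested genes gave 24.5% and 26.2%. The falling genes included 4 of the 5 mitochondrial folate genes, and the rising ones OAZ1 and OAZ2, the antizymes of ornithine decarboxylase in the set.

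Compared with each other, JQ1 and FIDAS-5 libraries differed in 22 of the 47 genes, 46.8% against 34.8% of all tested genes. In 10 the level was higher with JQ1 and in 12 lower, where 16.4% and 18.5% of all tested genes were. Without the same 3 genes the count was 19 of 44 (43.2%). Every JQ1 library was above every FIDAS-5 library for 13 of the 47 and below for 15, where all tested genes gave 22.7% and 25.0%. The doses differ and the compounds act on different proteins, so this contrast compares these cultures and not the strength of the compounds. Both vehicle comparisons share the same 3 vehicle libraries. Against those libraries MTHFD1 and MTHFD1L were called lower with each compound, NNMT and SMOX higher with FIDAS-5 and lower with JQ1, and AHCY and SHMT1 lower with FIDAS-5.

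**Figure D1:**
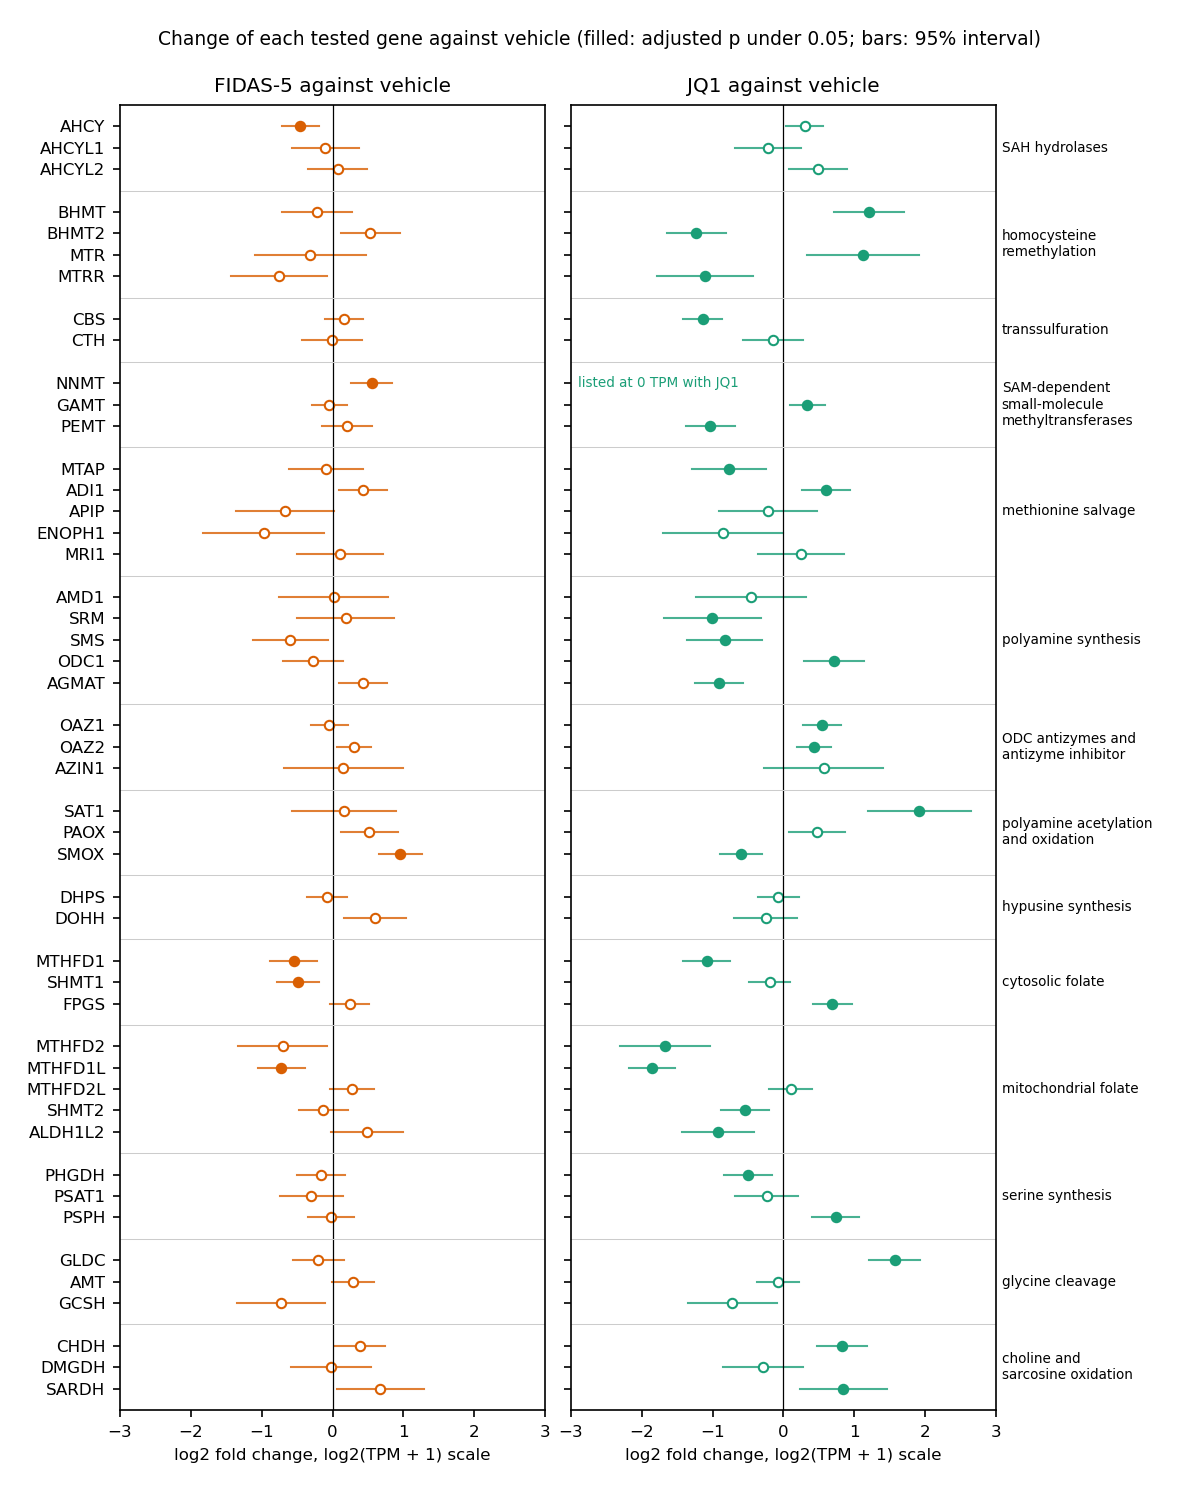
Log2 fold change (horizontal axis, on the log2(TPM + 1) scale) of each of the 47 tested genes, ordered by role, with FIDAS-5 on the left and JQ1 on the right, each against vehicle. Points are estimates, bars their 95% confidence intervals, and filled points have an adjusted p under 0.05; 6 points are filled for FIDAS-5 and 28 for JQ1, besides NNMT, which was listed at 0 TPM with JQ1 and has no fold change drawn.

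The first step after methyl transfer moved with FIDAS-5. AHCY, the SAH hydrolase, had 110.1, 103 and 109.6 TPM with FIDAS-5, 169.5, 189 and 187 TPM with JQ1 and 145, 159.6 and 138 TPM with vehicle. Every FIDAS-5 library lay below every vehicle library, and every JQ1 library above. AHCY fell with FIDAS-5 (log2 fold change -0.45 with SE 0.12, adjusted p = 0.0239) and was higher with JQ1 than with FIDAS-5 (log2 fold change 0.75 with SE 0.12, adjusted p = 0.00115). With JQ1 its difference from vehicle did not pass the test (log2 fold change 0.30 with SE 0.12, adjusted p = 0.0687). Its position in RefSeq GRCh38.p14 is chromosome 20 from 34231981 to 34311836. The FIDAS-5 call was lost under median-of-ratios scaling, under quantile normalization, in a fit of the 6 libraries alone, with the third library of both compounds left out, with only protein-coding genes, without FIDAS-5 replicate 1, 2 or 3 and without vehicle replicate 2 or 3 (adjusted p = 0.0525 to 0.111). The AHCY-like genes AHCYL1, at 36.6 to 68.6 TPM, and AHCYL2, at 5.02 to 10.03 TPM, encode relatives of AHCY that are known for roles in ion transport and calcium signalling rather than SAH hydrolysis, and neither was called in any comparison. For AHCYL1 the 95% interval of the log2 fold change with FIDAS-5 was -0.57 to 0.37. Some alternatives, among them removal of the GC trend, called AHCYL2 higher with JQ1 than with vehicle (lowest adjusted p = 0.000856).

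In remethylation of homocysteine all 4 genes were called with JQ1, MTR and BHMT higher and MTRR and BHMT2 lower. BHMT among them passed the filter only through the libraries where it is high. With FIDAS-5 limma called none of the 4 (2, BHMT2 and MTRR, at an unadjusted p under 0.05). MTR, the cobalamin-dependent methionine synthase, had 5.67, 3.30 and 2.74 TPM with FIDAS-5, 17.6, 14.9 and 6.20 TPM with JQ1 and 5.15, 4.61 and 4.97 TPM with vehicle. All JQ1 libraries were above all the others, with replicate 3 far below replicates 1 and 2. MTR rose with JQ1 (log2 fold change 1.12 with SE 0.35, adjusted p = 0.0308). MTRR, the reductase that reactivates MTR, had 21.8, 16.5 and 11.6 TPM with FIDAS-5, 16.1, 15.6 and 7.68 TPM with JQ1 and 24.3, 32.4 and 27.7 TPM with vehicle. No treated library reached a vehicle library, and MTRR fell with JQ1 (log2 fold change -1.10 with SE 0.30, adjusted p = 0.0183), while the difference with FIDAS-5 missed the threshold (log2 fold change -0.76 with SE 0.30, adjusted p = 0.112). The JQ1 call of MTR was lost with no filter on low values, without JQ1 replicate 1 or 2 and without vehicle replicate 1, 2 or 3 (adjusted p = 0.062 to 0.102), and that of MTRR without vehicle replicate 2 or 3 (adjusted p = 0.0512 to 0.0637). Some alternatives, among them median-of-ratios scaling and removal of the GC trend, called MTRR lower with FIDAS-5 (lowest adjusted p = 0.0185).

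BHMT was higher and BHMT2 lower with JQ1. BHMT, betaine-homocysteine methyltransferase, had 0.707, 0.756 and 0.501 TPM with FIDAS-5, 4.51, 3.98 and 2.19 TPM with JQ1 and 0.704, 1.33 and 0.804 TPM with vehicle, so that it passed the filter through the JQ1 libraries and its call there could hardly have been otherwise. Its fitted difference with JQ1 was 1.20 on the log2 scale (SE 0.22, adjusted p = 0.00269). BHMT2, which in the methionine pathway uses S-methylmethionine as its methyl donor, had 26.8, 23.3 and 27.9 TPM with FIDAS-5, 7.51, 7.45 and 5.99 TPM with JQ1 and 13.7, 22.4 and 17.96 TPM with vehicle. The 3 groups did not overlap: FIDAS-5 libraries were the highest and JQ1 libraries the lowest. BHMT2 fell with JQ1 (log2 fold change -1.23 with SE 0.18, adjusted p = 0.000997), and it was lower with JQ1 than with FIDAS-5 (log2 fold change -1.76 with SE 0.18, adjusted p = 0.000127), while its higher level with FIDAS-5 than with vehicle missed the threshold (log2 fold change 0.53 with SE 0.18, adjusted p = 0.0744). The neighbouring genes BHMT and BHMT2 both lie on chromosome 5, from 79111809 to 79132288 and from 79069767 to 79090069, with DMGDH beside them from 78997564 to 79069674. DMGDH, which oxidises dimethylglycine, the product of BHMT, was called in no comparison, at 0.866 to 3.04 TPM. The paralogs BHMT and BHMT2 are alike in sequence, and how the authors' quantification divided reads between them is not known.

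In transsulfuration CBS, at the entry, fell with JQ1, and CTH, at the exit, was called in no comparison. CBS, cystathionine beta-synthase, had 39.8, 37.6 and 43.1 TPM with FIDAS-5, 16.3, 15.8 and 14.9 TPM with JQ1 and 34.4, 39.6 and 33.5 TPM with vehicle. The JQ1 libraries stood together, far below all the others. CBS fell with JQ1 (log2 fold change -1.14 with SE 0.12, adjusted p = 0.000167) and was lower with JQ1 than with FIDAS-5 (log2 fold change -1.30 with SE 0.12, adjusted p = 6.21e-05). With FIDAS-5 against vehicle its 95% interval was -0.11 to 0.43. CBSL, a near-identical copy listed separately, was at 3.93 to 6.20 TPM with FIDAS-5, 2.15 to 2.57 TPM with JQ1 and 1.36 to 4.91 TPM with vehicle, so the level of CBS alone is uncertain. CTH, which splits cystathionine to cysteine, had 12.6, 9.51 and 9.52 TPM with FIDAS-5, 11.02, 10.7 and 7.02 TPM with JQ1 and 11.5, 10.6 and 9.59 TPM with vehicle. The groups overlapped, and its log2 fold changes were -0.01 with FIDAS-5 (95% interval -0.43 to 0.42) and -0.15 with JQ1 (95% interval -0.57 to 0.28).

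Among the enzymes that spend SAM on small molecules, NNMT, the nicotinamide N-methyltransferase, had 4.58, 4.40 and 4.14 TPM with FIDAS-5 and 2.43, 3.31 and 2.34 TPM with vehicle, and it was listed at 0 in all 3 JQ1 libraries. FIDAS-5 libraries were the highest of the 9. NNMT rose with FIDAS-5 (log2 fold change 0.55 with SE 0.13, adjusted p = 0.0171). It was called lower with JQ1 than with vehicle (adjusted p = 2.32e-05) and than with FIDAS-5 (adjusted p = 3.12e-06), with no fold change given because of the zeros. NNMT passed the filter through the FIDAS-5 and vehicle libraries, so that these calls against zeros could hardly have been otherwise, and without counts it cannot be told whether the zeros are an absence of the transcript or an estimate of 0. Its FIDAS-5 call was lost without FIDAS-5 replicate 1, 2 or 3 and without vehicle replicate 3 (adjusted p = 0.0502 to 0.0769). PEMT, which makes phosphatidylcholine in liver by methylating phosphatidylethanolamine, had 12.9, 12.9 and 13.6 TPM with FIDAS-5, 5.64, 5.35 and 4.12 TPM with JQ1 and 12.1, 9.28 and 12.6 TPM with vehicle. JQ1 libraries were below all the others, and PEMT fell with JQ1 (log2 fold change -1.03 with SE 0.15, adjusted p = 0.00101; against FIDAS-5, log2 fold change -1.23 with SE 0.15, adjusted p = 0.000362). GAMT, which makes creatine, had 88.8, 86.2 and 83.5 TPM with FIDAS-5, 107, 118 and 113 TPM with JQ1 and 84.6, 90.6 and 91.7 TPM with vehicle. It was higher with JQ1 in each library, by a small step (log2 fold change 0.34 with SE 0.11, adjusted p = 0.0341), and the call was lost under 12 of the alternatives besides the replicate block, among them removal of the GC trend, where the value was 0.10 (adjusted p = 0.529, the highest of the 12, the lowest being 0.0548). GNMT, the glycine N-methyltransferase that uses SAM in normal liver, was at or under 0.264 TPM throughout.

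**Figure D2:**
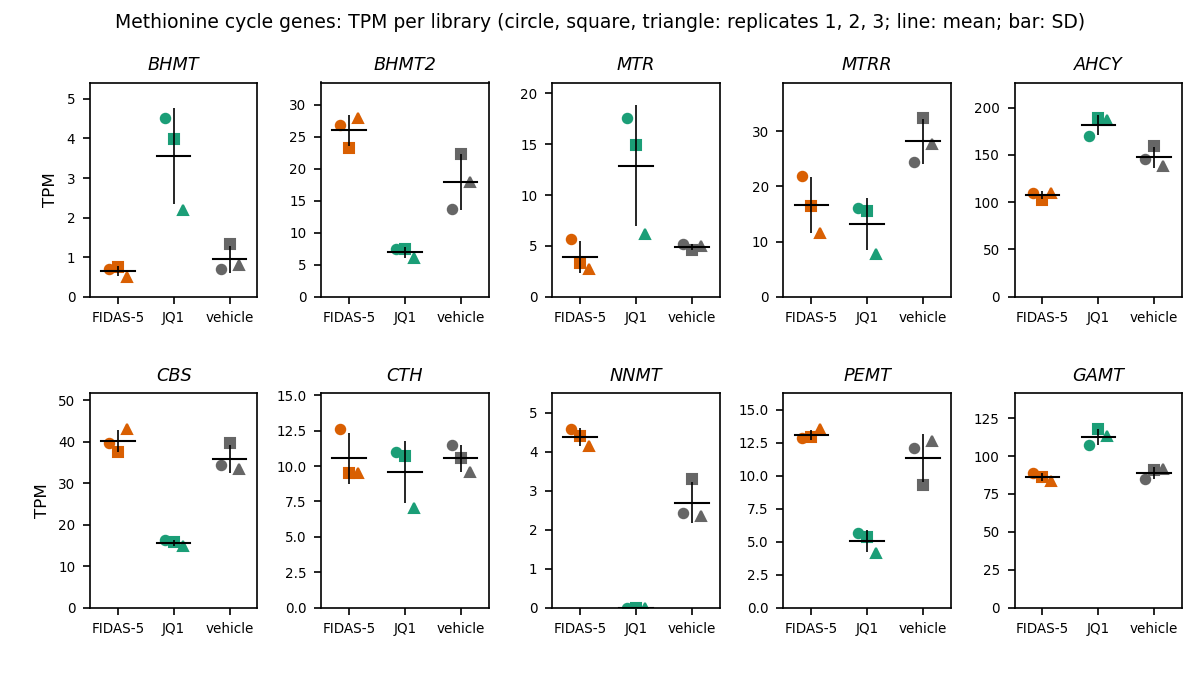
TPM (vertical axes, each from 0) of 10 methionine cycle, transsulfuration and methyltransferase genes in each library with FIDAS-5, JQ1 and vehicle; circles, squares and triangles are replicates 1, 2 and 3, lines are group means and bars SDs (n = 3). BHMT and MTR are highest with JQ1, BHMT2, MTRR, CBS and PEMT are lowest there, NNMT is at 0 TPM, and AHCY is lowest with FIDAS-5.

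Methionine salvage takes methylthioadenosine, the by-product of polyamine synthesis, back to methionine. With JQ1, ADI1 rose and MTAP fell, while with FIDAS-5 limma called none of the 5 genes (2, ADI1 and ENOPH1, at an unadjusted p under 0.05). MTAP, which makes the first cut and is often deleted in tumours, had 6.70, 4.01 and 4.20 TPM with FIDAS-5, 3.66, 2.88 and 1.80 TPM with JQ1 and 5.98, 4.51 and 5.40 TPM with vehicle. The JQ1 libraries were the lowest, and MTAP fell with JQ1 (log2 fold change -0.76 with SE 0.23, adjusted p = 0.0286). The call was lost with no filter on low values, with the third library of both compounds left out, without JQ1 replicate 2 or 3 and without vehicle replicate 1 or 3 (adjusted p = 0.0524 to 0.0799). Between the compounds MTAP was lower with JQ1 but missed the threshold (log2 fold change -0.66 with SE 0.23, adjusted p = 0.0525). With the replicate number as a block it was called (adjusted p = 0.02), though whether the numbers mark pairs is not known. ADI1, the dioxygenase near the end of the pathway, had 56.9, 48.1 and 59.3 TPM with FIDAS-5, 68.9, 64.5 and 53.3 TPM with JQ1 and 37.9, 45.2 and 38.3 TPM with vehicle. All treated libraries exceeded all vehicle libraries, and ADI1 rose with JQ1 (log2 fold change 0.60 with SE 0.15, adjusted p = 0.0117), while with FIDAS-5 the difference missed the threshold (log2 fold change 0.43 with SE 0.15, adjusted p = 0.0767). MRI1, APIP and ENOPH1, which act between these steps, were not called: their log2 fold changes were 0.11, -0.67 and -0.97 with FIDAS-5 and 0.25, -0.21 and -0.85 with JQ1. ENOPH1 had 10.95, 10.7 and 6.43 TPM with FIDAS-5, 14.8, 13.3 and 4.88 TPM with JQ1 and 14.9, 23.7 and 18.95 TPM with vehicle, with every treated library below every vehicle library (adjusted p = 0.106 with FIDAS-5 and 0.105 with JQ1). Some alternatives called ENOPH1 lower with FIDAS-5 (lowest adjusted p = 0.016) and with JQ1 (lowest adjusted p = 0.0228). Some also called APIP lower with FIDAS-5 (lowest adjusted p = 0.0191).

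In polyamine synthesis the ornithine decarboxylase gene and the aminopropyl transferase genes moved apart with JQ1, and with FIDAS-5 limma called none of the 5 genes (2, AGMAT and SMS, at an unadjusted p under 0.05). ODC1, the decarboxylase that makes putrescine and limits the rate of the pathway, had 109.6, 83.3 and 110.4 TPM with FIDAS-5, 211, 205 and 189 TPM with JQ1 and 99.3, 156 and 117 TPM with vehicle. Every JQ1 library was above every other library, and ODC1 rose with JQ1 (log2 fold change 0.72 with SE 0.19, adjusted p = 0.0153; against FIDAS-5, log2 fold change 0.999 with SE 0.19, adjusted p = 0.00347). SRM, spermidine synthase, had 119.9, 90.5 and 117 TPM with FIDAS-5, 42.2, 48.2 and 51.04 TPM with JQ1 and 125, 54.6 and 126 TPM with vehicle. JQ1 libraries lay under all the others, and vehicle replicate 2 lay close to them, far below the other vehicle libraries. SRM fell with JQ1 (log2 fold change -1.003 with SE 0.30, adjusted p = 0.0276; against FIDAS-5, log2 fold change -1.19 with SE 0.30, adjusted p = 0.0149). SMS, spermine synthase, had 60.3, 51.02 and 44.6 TPM with FIDAS-5, 56.1, 49.7 and 30.1 TPM with JQ1 and 70.96, 90.2 and 76.01 TPM with vehicle. All treated libraries were below all vehicle libraries, and SMS fell with JQ1 (log2 fold change -0.83 with SE 0.23, adjusted p = 0.0208) but not past the threshold with FIDAS-5 (log2 fold change -0.60 with SE 0.23, adjusted p = 0.107). Some alternatives, among them quantile normalization and a fit of the 6 libraries alone, called SMS lower with FIDAS-5 (lowest adjusted p = 0.0177). Without certain libraries the JQ1 calls were lost: that of ODC1 without JQ1 replicate 2 and without vehicle replicate 3 (adjusted p = 0.0503 to 0.053), that of SMS without vehicle replicate 2 or 3 (adjusted p = 0.0528 to 0.0705) and that of SRM with no filter on low values, in a fit of the 6 libraries alone, without JQ1 replicate 1 or 2 and without vehicle replicate 1 or 3 (adjusted p = 0.0568 to 0.1).

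AMD1, the decarboxylase that draws SAM into polyamine synthesis, was called in no comparison. It had 156, 111 and 72.7 TPM with FIDAS-5, 109.5, 89.8 and 47.9 TPM with JQ1 and 118, 93.9 and 110.2 TPM with vehicle. The treated libraries spread widely, with replicate 3 the lowest of each treated group, and the 95% intervals of the log2 fold change were -0.76 to 0.79 with FIDAS-5 and -1.23 to 0.32 with JQ1. AGMAT, named for the hydrolysis of agmatine to putrescine, had 17.4, 13.6 and 16.9 TPM with FIDAS-5, 6.11, 5.15 and 5.77 TPM with JQ1 and 13.6, 10.7 and 10.5 TPM with vehicle. JQ1 libraries stood together at the bottom, and AGMAT fell with JQ1 (log2 fold change -0.91 with SE 0.15, adjusted p = 0.00167; against FIDAS-5, log2 fold change -1.34 with SE 0.15, adjusted p = 0.00019). With FIDAS-5 its higher level missed the threshold (log2 fold change 0.43 with SE 0.15, adjusted p = 0.0749).

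The antizymes bind ODC1 protein and send it to the proteasome. OAZ1 had 291, 273 and 284 TPM with FIDAS-5, 425, 434 and 419 TPM with JQ1 and 283, 328 and 268 TPM with vehicle. The JQ1 libraries agreed closely and stood above all the others, and OAZ1 rose with JQ1 (log2 fold change 0.54 with SE 0.12, adjusted p = 0.00647). With the GC trend removed the value was 0.35 (adjusted p = 0.0398). OAZ2 had 36.5, 34.9 and 33.9 TPM with FIDAS-5, 39.5, 39.6 and 36.9 TPM with JQ1 and 28.8, 28.7 and 27.4 TPM with vehicle. Its 3 groups did not overlap, and it rose with JQ1 (log2 fold change 0.44 with SE 0.11, adjusted p = 0.0107), with FIDAS-5 in between (log2 fold change 0.30 with SE 0.11, adjusted p = 0.0765). AZIN1, the inhibitor that frees ODC1 from antizyme, ranged from 14.4 to 45.2 TPM with overlap between all groups and was not called (log2 fold change 0.57 with SE 0.37, adjusted p = 0.26 with JQ1). OAZ3, an antizyme outside the set, averaged 3.45 TPM with FIDAS-5, 0.845 TPM with JQ1 and 2.12 TPM with vehicle. Limma called OAZ3 lower with JQ1 than with vehicle (log2 fold change -0.74 with SE 0.22, adjusted p = 0.0264). Its JQ1 mean was under 1 TPM, so it passed the filter through the libraries where it is high.

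In polyamine breakdown the acetyltransferase gene SAT1 rose with JQ1, and the oxidase gene SMOX rose with FIDAS-5 and fell with JQ1. SAT1, the spermidine and spermine acetyltransferase that limits catabolism and export, had 94.7, 92.8 and 59.7 TPM with FIDAS-5, 359, 353 and 164 TPM with JQ1 and 63.3, 89.1 and 66.6 TPM with vehicle. Every JQ1 library was above every other library, with replicate 3 far below replicates 1 and 2. SAT1 rose with JQ1 (log2 fold change 1.92 with SE 0.32, adjusted p = 0.00183; against FIDAS-5, log2 fold change 1.76 with SE 0.32, adjusted p = 0.00306). SAT1 lies on chromosome X from 23783173 to 23786210. SMOX, the spermine oxidase, had 30.2, 25.2 and 29.98 TPM with FIDAS-5, 9.14, 9.24 and 8.57 TPM with JQ1 and 15.4, 14.9 and 12.3 TPM with vehicle. The 3 groups were apart from each other, with FIDAS-5 at the top and JQ1 at the bottom. SMOX rose with FIDAS-5 (log2 fold change 0.96 with SE 0.13, adjusted p = 0.00144), fell with JQ1 (log2 fold change -0.60 with SE 0.13, adjusted p = 0.00692) and differed between the compounds (log2 fold change -1.56 with SE 0.13, adjusted p = 4.01e-05). These SMOX calls held under all 19 alternatives, as did that of SAT1 with JQ1. PAOX, the oxidase that acts on acetylated polyamines, had 2.96, 3.59 and 2.84 TPM with FIDAS-5, 2.60, 3.96 and 2.58 TPM with JQ1 and 1.65, 1.61 and 2.42 TPM with vehicle. All treated libraries were above all vehicle libraries, and neither difference passed the test (adjusted p = 0.0701 with FIDAS-5 and 0.0601 with JQ1).

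Spermidine also supplies the aminobutyl group of hypusine, a modified residue of the translation factor EIF5A. DHPS, which starts that modification, ran from 23.5 to 30.3 TPM over the 9 libraries and was not called, with 95% intervals of -0.37 to 0.20 for FIDAS-5 and -0.35 to 0.21 for JQ1. DOHH, which completes it, had 3.50, 2.76 and 3.86 TPM with FIDAS-5, 1.60, 0.960 and 1.75 TPM with JQ1 and 1.78, 1.40 and 2.54 TPM with vehicle. FIDAS-5 libraries were the highest, and DOHH was lower with JQ1 than with FIDAS-5 (log2 fold change -0.85 with SE 0.19, adjusted p = 0.00906), while neither compound differed from vehicle past the threshold (adjusted p = 0.0601 with FIDAS-5 and 0.34 with JQ1). DOHH was called higher with FIDAS-5 without vehicle replicate 3, without JQ1 replicate 3 and with protein-coding genes rescaled alone (adjusted p = 0.036 to 0.0496). It was also called with the replicate number as a block (adjusted p = 0.0152). EIF5A itself averaged 275 ± 5.84 TPM with FIDAS-5, 139 ± 3.71 TPM with JQ1 and 316 ± 28.3 TPM with vehicle (SD, n = 3 each), and it fell with JQ1 (log2 fold change -1.18 with SE 0.11, adjusted p = 0.000107).

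**Figure D3:**
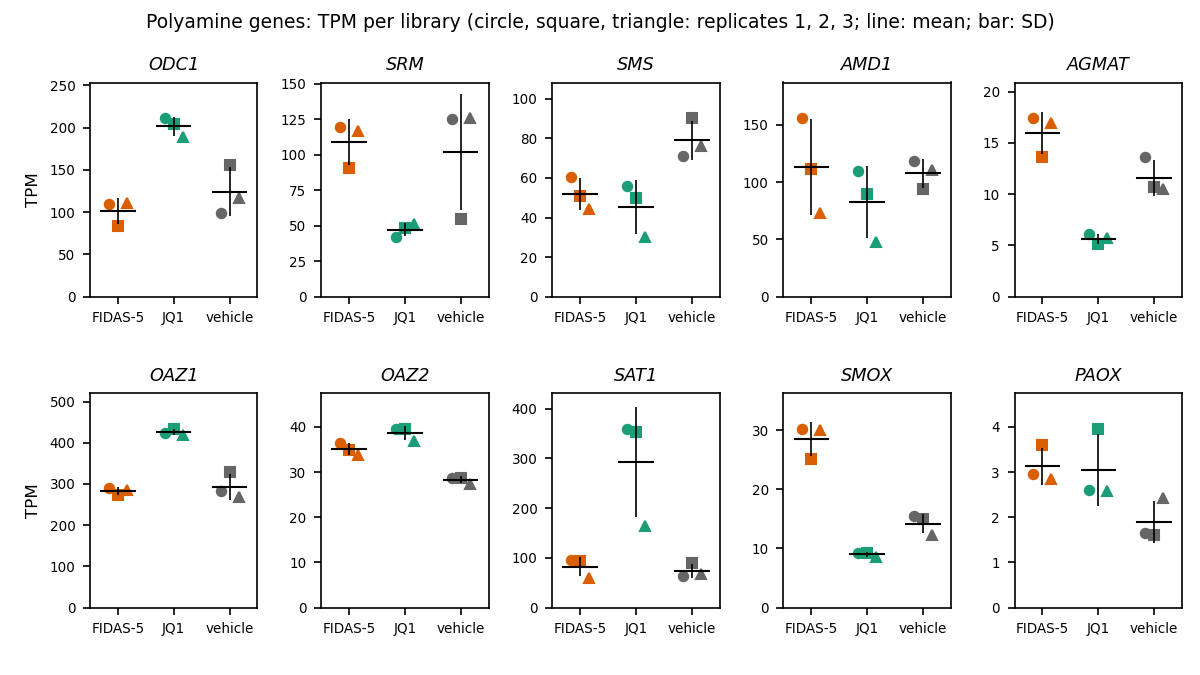
TPM (vertical axes, each from 0) of 10 polyamine genes in each library with FIDAS-5, JQ1 and vehicle; circles, squares and triangles are replicates 1, 2 and 3, lines are group means and bars SDs (n = 3). ODC1, OAZ1 and SAT1 are highest with JQ1, SRM, AGMAT and SMOX are lowest there, and SMOX is highest with FIDAS-5.

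Of the 5 mitochondrial folate genes 4 were called lower with JQ1, where 19.4% of all tested genes were. ALDH1L2 among them passed the filter only through the libraries where it is high. MTHFD1L, the synthetase that releases formate from the mitochondrion, had 15.4, 10.7 and 14.3 TPM with FIDAS-5, 5.70, 5.49 and 5.46 TPM with JQ1 and 23.2, 23.3 and 21.4 TPM with vehicle. The 3 groups were apart, vehicle at the top and JQ1 at the bottom, where the libraries lay close together. MTHFD1L fell with FIDAS-5 (log2 fold change -0.72 with SE 0.14, adjusted p = 0.0083) and with JQ1 (log2 fold change -1.85 with SE 0.14, adjusted p = 3.87e-05) and was lower with JQ1 than with FIDAS-5 (log2 fold change -1.13 with SE 0.14, adjusted p = 0.000421), and all 3 calls held under all 19 alternatives. MTHFD2, the dehydrogenase and cyclohydrolase known from embryos and tumours, had 19.95, 15.8 and 15.3 TPM with FIDAS-5, 11.2, 8.76 and 5.41 TPM with JQ1 and 20.4, 37.7 and 28.9 TPM with vehicle. JQ1 libraries were the lowest and FIDAS-5 libraries below all vehicle libraries. MTHFD2 fell with JQ1 (log2 fold change -1.67 with SE 0.28, adjusted p = 0.00175), while the difference with FIDAS-5 missed the threshold (log2 fold change -0.70 with SE 0.28, adjusted p = 0.112). Some alternatives, among them quantile normalization and removal of the GC trend, called MTHFD2 lower with FIDAS-5 (lowest adjusted p = 0.0266).

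SHMT2, which splits serine to glycine in the mitochondrion, was the most abundant folate gene here. It had 162, 121 and 144 TPM with FIDAS-5, 101, 109.7 and 108 TPM with JQ1 and 171, 164 and 133 TPM with vehicle. JQ1 libraries lay below all the others, and SHMT2 fell with JQ1 (log2 fold change -0.54 with SE 0.15, adjusted p = 0.0206). ALDH1L2, which oxidises formyl folate, had 4.59, 2.19 and 2.13 TPM with FIDAS-5, 0.687, 0.371 and 0.289 TPM with JQ1 and 1.80, 1.58 and 1.82 TPM with vehicle. It passed the filter through the FIDAS-5 and vehicle libraries, the JQ1 libraries all being under 1 TPM, so that its calls against them could hardly have been otherwise. It was called lower with JQ1 (log2 fold change -0.92 with SE 0.23, adjusted p = 0.0114; against FIDAS-5, log2 fold change -1.41 with SE 0.23, adjusted p = 0.0015), and with a pseudocount of 0.1 these values were -1.80 and -2.46. MTHFD2L, the paralog of MTHFD2 that adult tissues express, was the fifth gene and was not called. It had 10.5, 9.36 and 8.64 TPM with FIDAS-5, 9.40, 7.97 and 7.59 TPM with JQ1 and 6.83, 8.56 and 7.67 TPM with vehicle. The JQ1 and vehicle groups overlapped, and the 95% interval with JQ1 was -0.21 to 0.41. The SHMT2 call was lost under quantile normalization, without JQ1 replicate 1 or 2 and without vehicle replicate 1 or 2 (adjusted p = 0.0539 to 0.0768).

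In the cytosol, MTHFD1, which carries the matching synthetase, cyclohydrolase and dehydrogenase activities in a single protein, had 8.27, 6.66 and 9.02 TPM with FIDAS-5, 5.80, 5.42 and 4.34 TPM with JQ1 and 11.99, 11.4 and 12.8 TPM with vehicle. The 3 groups did not overlap, vehicle being the highest and JQ1 the lowest. MTHFD1 fell with FIDAS-5 (log2 fold change -0.55 with SE 0.15, adjusted p = 0.0305) and with JQ1 (log2 fold change -1.08 with SE 0.15, adjusted p = 0.000635). The FIDAS-5 call was lost without FIDAS-5 replicate 1 or 2, without JQ1 replicate 2 and without vehicle replicate 1, 2 or 3 (adjusted p = 0.0525 to 0.108). SHMT1, the cytosolic serine hydroxymethyltransferase, had 6.43, 6.48 and 6.85 TPM with FIDAS-5, 9.03, 8.42 and 7.51 TPM with JQ1 and 9.22, 11.2 and 8.69 TPM with vehicle. FIDAS-5 libraries were the lowest and close together, and SHMT1 fell with FIDAS-5 (log2 fold change -0.49 with SE 0.13, adjusted p = 0.0292), a call lost under median-of-ratios scaling, in a fit of the 6 libraries alone, with the third library of both compounds left out, without FIDAS-5 replicate 1, 2 or 3, without JQ1 replicate 2 and without vehicle replicate 2 or 3 (adjusted p = 0.0504 to 0.083). With JQ1 SHMT1 overlapped vehicle (log2 fold change -0.20 with SE 0.13, adjusted p = 0.27), and its difference between the compounds did not pass the test (adjusted p = 0.114). FPGS, which adds glutamates that hold folate in the cell, had 4.46, 4.45 and 4.84 TPM with FIDAS-5, 5.90, 7.45 and 6.67 TPM with JQ1 and 4.10, 3.49 and 3.64 TPM with vehicle. Treated libraries all exceeded vehicle, and FPGS rose with JQ1 (log2 fold change 0.69 with SE 0.12, adjusted p = 0.00244), by 0.39 with the GC trend removed.

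Promoters are shown for 4 genes whose window held the letters CACGTG, the canonical E-box to which MYC and related factors are known to bind, and whose level changed with JQ1: MTHFD1L, MTHFD1 and SRM fell and ODC1 rose. The search covered 300 bases per window, 250 before the start and 50 after it, on both strands, in RefSeq windows of GRCh38.p14. The 4 were picked after the search. The E-box letters were in 2548 of 35116 windows of all genes (7.26%) and in 12 of 66 windows of the set (18.2%), or per symbol in 2396 of 27305 (8.77%) and 10 of 41 (24.4%: ADI1, DOHH, ENOPH1, FPGS, MRI1, MTHFD1, MTHFD1L, ODC1, PEMT and SRM). A second motif, the core of the composite site of C/EBP and ATF factors (TGATGNAA, N being any base), was in 3.62% of all windows and 6.06% of the set's windows, per symbol in 4.46% and in 2 of 41 (4.88%: AHCYL2 and MTHFD1L). The 2 motifs share no letters in the windows printed. A match is a description of these letters only, and no binding was measured. The shares over all genes include symbols that were not expressed here, so they are not shares of genes like those of the set. Genes of the set without a window included MTRR, SHMT2, PSPH, GAMT, NNMT, SMOX and ALDH1L2, all called with JQ1. The bases are the 250 before the start of 1 RefSeq transcript of each gene, 5′ to 3′ on the strand of the gene, with E-box letters and, in MTHFD1L, the composite core in capitals. For MTHFD1L the transcript was picked because its 250 bases held both motifs, and for the others because they held the E-box letters. The MTHFD1L window lies within the gene, whose RefSeq span begins at 150865702. Likewise the ODC1 window lies within its gene, whose RefSeq span begins at 10448327 on the minus strand. The window of MTHFD1L is chr6:150866197-150866446 on the plus strand, with the E-box starting at -115 and the core at -90.
MTHFD1L: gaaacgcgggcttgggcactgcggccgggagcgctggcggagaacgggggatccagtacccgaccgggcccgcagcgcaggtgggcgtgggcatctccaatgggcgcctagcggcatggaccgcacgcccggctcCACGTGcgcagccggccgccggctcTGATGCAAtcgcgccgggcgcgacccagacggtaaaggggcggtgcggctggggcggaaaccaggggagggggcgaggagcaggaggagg
The MTHFD1 window is chr14:64388103-64388352 on the plus strand, with the E-box starting at -15.
MTHFD1: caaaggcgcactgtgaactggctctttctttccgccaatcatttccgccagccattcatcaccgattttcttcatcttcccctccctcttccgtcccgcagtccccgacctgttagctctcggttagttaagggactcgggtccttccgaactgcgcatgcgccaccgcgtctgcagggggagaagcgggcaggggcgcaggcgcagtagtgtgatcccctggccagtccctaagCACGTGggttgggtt
The SRM window is chr1:11060019-11060268 on the minus strand, with the E-box starting at -199.
SRM: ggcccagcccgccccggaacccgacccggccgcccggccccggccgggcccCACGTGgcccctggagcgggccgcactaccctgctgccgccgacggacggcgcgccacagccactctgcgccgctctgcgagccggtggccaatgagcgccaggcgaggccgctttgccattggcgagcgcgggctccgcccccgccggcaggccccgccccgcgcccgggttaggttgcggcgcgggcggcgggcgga
The ODC1 window is chr2:10448013-10448262 on the minus strand, with the E-box starting at -29.
ODC1: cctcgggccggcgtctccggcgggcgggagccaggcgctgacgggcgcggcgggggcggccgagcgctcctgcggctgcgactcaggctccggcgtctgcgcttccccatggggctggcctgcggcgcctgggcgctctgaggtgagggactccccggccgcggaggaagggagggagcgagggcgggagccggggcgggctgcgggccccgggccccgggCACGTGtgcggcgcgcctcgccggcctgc
Of the 10 genes with the E-box letters, 4 fell with JQ1 (MTHFD1, MTHFD1L, PEMT and SRM), 3 rose (ADI1, FPGS and ODC1) and 3 were not called (DOHH, ENOPH1 and MRI1). MYC, which encodes the best known E-box factor, averaged 12.8 ± 2.75 TPM with FIDAS-5, 7.13 ± 0.825 TPM with JQ1 and 8.70 ± 0.609 TPM with vehicle (SD, n = 3 each) and was called only between the compounds (log2 fold change -0.75 with SE 0.17, adjusted p = 0.00795 for JQ1 against FIDAS-5).

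Serine synthesis changed at its first and last steps with JQ1, in opposite directions, while with FIDAS-5 limma called none of its 3 genes, nor did any reach an unadjusted p under 0.05. PHGDH, the dehydrogenase that commits glucose carbon to serine, had 60.3, 46.9 and 66.5 TPM with FIDAS-5, 43.1, 48.7 and 43.6 TPM with JQ1 and 65.1, 68.4 and 59.7 TPM with vehicle. JQ1 libraries lay below all vehicle libraries, and PHGDH fell with JQ1 (log2 fold change -0.50 with SE 0.15, adjusted p = 0.0268), a call lost without JQ1 replicate 1, 2 or 3 and without vehicle replicate 1 or 2 (adjusted p = 0.0507 to 0.0781). PSAT1, the transaminase of the middle step, had 121, 92.5 and 107 TPM with FIDAS-5, 136, 119 and 85.4 TPM with JQ1 and 114, 147 and 135 TPM with vehicle. Its groups overlapped with JQ1 (log2 fold change -0.23 with SE 0.20, adjusted p = 0.379). PSPH, the phosphatase that releases serine, had 47.8, 43.7 and 48.4 TPM with FIDAS-5, 83.7, 83.8 and 71.7 TPM with JQ1 and 43.3, 56.8 and 42.8 TPM with vehicle. JQ1 libraries stood above all the others, and PSPH rose with JQ1 (log2 fold change 0.74 with SE 0.15, adjusted p = 0.00403; against FIDAS-5, log2 fold change 0.76 with SE 0.15, adjusted p = 0.00381). With the 3 genes summed, serine synthesis transcripts held 183 to 229 TPM with FIDAS-5, 201 to 262 TPM with JQ1 and 222 to 272 TPM with vehicle, and the groups overlapped.

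The glycine cleavage system breaks glycine down in the mitochondrion and loads its carbon on folate. GLDC, its decarboxylase, had 29.8, 21.9 and 25.8 TPM with FIDAS-5, 98.7, 94.9 and 77.8 TPM with JQ1 and 27.8, 33.4 and 27.99 TPM with vehicle. JQ1 libraries were far above all the others and FIDAS-5 overlapped vehicle. GLDC rose with JQ1 (log2 fold change 1.57 with SE 0.16, adjusted p = 0.00013; against FIDAS-5, log2 fold change 1.77 with SE 0.16, adjusted p = 5.2e-05), and this call held under all 19 alternatives. GLDC lies on chromosome 9 from 6532467 to 6645729. AMT, the aminomethyltransferase of the system, had 26.98, 23.5 and 25.6 TPM with FIDAS-5, 17.9, 21.6 and 18.8 TPM with JQ1 and 21.2, 22.2 and 18.3 TPM with vehicle, and GCSH, its carrier protein, had 16.3, 15.7 and 11.3 TPM with FIDAS-5, 19.98, 16.2 and 9.14 TPM with JQ1 and 20.1, 29.3 and 24.4 TPM with vehicle. Neither was called: for AMT the interval with JQ1 was -0.38 to 0.21, and GCSH was lower in every treated library than in every vehicle library with adjusted p = 0.0969 for FIDAS-5 and 0.0673 for JQ1. Some alternatives, among them median-of-ratios scaling, called GCSH lower with FIDAS-5 (lowest adjusted p = 0.0191) and with JQ1 (lowest adjusted p = 0.00702). A processed copy, GCSHP3, was listed at 2.47 to 7.95 TPM, which leaves the level of GCSH alone uncertain.

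Choline is oxidised to betaine, the substrate of BHMT, and its methyl groups pass through dimethylglycine and sarcosine to folate. CHDH, choline dehydrogenase, had 7.89, 6.12 and 7.54 TPM with FIDAS-5, 11.7, 10.6 and 8.20 TPM with JQ1 and 5.42, 4.79 and 5.57 TPM with vehicle. The 3 groups did not overlap, and CHDH rose with JQ1 (log2 fold change 0.82 with SE 0.16, adjusted p = 0.00339), by 0.48 with the GC trend removed. SARDH, sarcosine dehydrogenase, had 20.02, 16.2 and 19.98 TPM with FIDAS-5, 18.5, 22.9 and 22.3 TPM with JQ1 and 16.2, 6.71 and 13.2 TPM with vehicle. Treated libraries exceeded vehicle libraries, of which replicate 2 was far below the others. SARDH rose with JQ1 (log2 fold change 0.84 with SE 0.27, adjusted p = 0.0357), but the value was 0.50 without vehicle replicate 2 and 0.56 with the GC trend removed, and the call was lost with no filter on low values, in a fit of the 6 libraries alone, with the third library of both compounds left out, without FIDAS-5 replicate 2, without JQ1 replicate 2 or 3 and without vehicle replicate 2 or 3 (adjusted p = 0.0502 to 0.102).

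**Figure D4:**
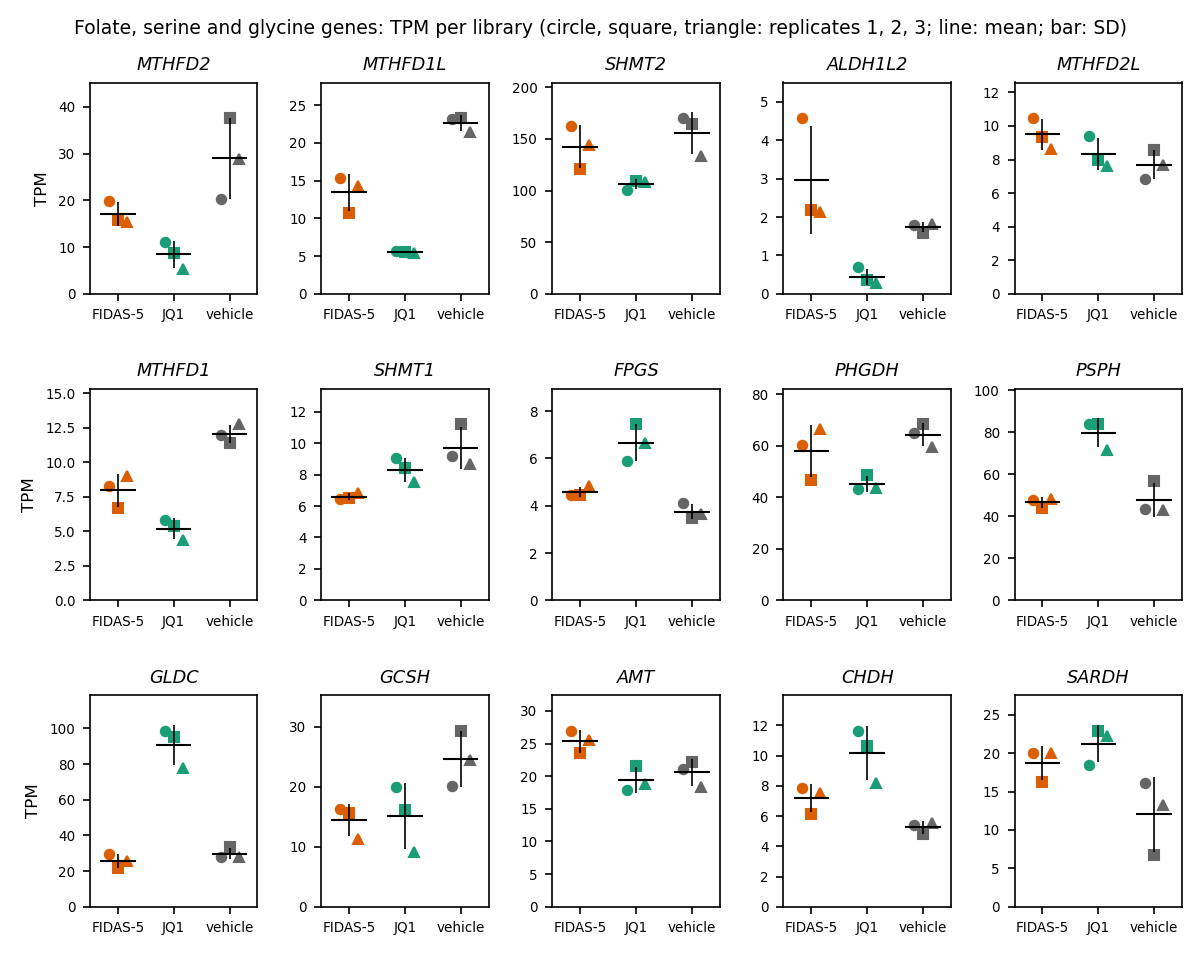
TPM (vertical axes, each from 0) of 15 folate, serine, glycine and choline genes in each library with FIDAS-5, JQ1 and vehicle; circles, squares and triangles are replicates 1, 2 and 3, lines are group means and bars SDs (n = 3). MTHFD2, MTHFD1L, SHMT2, ALDH1L2, MTHFD1 and PHGDH are lowest with JQ1, and GLDC, PSPH, FPGS and CHDH are highest there.

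Ratios of TPM within a library show how paired genes shifted against each other whatever the scaling of that library. A ratio does not remove the GC trend, which differed between libraries. Genes of some pairs differ in GC content, such as SAT1 (43.8%) and SRM (64.2%) or GLDC (48.6%) and GCSH (40.0%). The part of this in the ratios was not tested. The 12 pairs were chosen after the values were seen, so the ratios are a description with no test. MTHFD2 over MTHFD2L was 1.90, 1.69 and 1.77 with FIDAS-5, 1.19, 1.10 and 0.714 with JQ1 and 2.98, 4.40 and 3.76 with vehicle. MTHFD2 was well above MTHFD2L in vehicle libraries and close to it with JQ1. MTHFD1L over MTHFD1 was 1.86, 1.61 and 1.58 with FIDAS-5, 0.984, 1.01 and 1.26 with JQ1 and 1.93, 2.04 and 1.68 with vehicle. SHMT2 over SHMT1 was 25.2, 18.6 and 21.04 with FIDAS-5, 11.2, 13.02 and 14.4 with JQ1 and 18.5, 14.7 and 15.3 with vehicle. Both mitochondrial genes were lower relative to their cytosolic partners with JQ1 than in any vehicle library, and SHMT2 was higher relative to SHMT1 with FIDAS-5 than in any vehicle library. BHMT over BHMT2 was 0.0264, 0.0324 and 0.0179 with FIDAS-5, 0.601, 0.534 and 0.366 with JQ1 and 0.0515, 0.0596 and 0.0448 with vehicle. MTR over MTRR was 0.260, 0.200 and 0.236 with FIDAS-5, 1.09, 0.958 and 0.807 with JQ1 and 0.212, 0.143 and 0.179 with vehicle. In both pairs the JQ1 libraries stood far above all the others. PSPH over PHGDH was 0.792, 0.932 and 0.727 with FIDAS-5, 1.94, 1.72 and 1.65 with JQ1 and 0.665, 0.831 and 0.717 with vehicle. GLDC over GCSH was 1.82, 1.40 and 2.27 with FIDAS-5, 4.94, 5.88 and 8.52 with JQ1 and 1.38, 1.14 and 1.15 with vehicle. SMOX over SAT1 was 0.319, 0.271 and 0.502 with FIDAS-5, 0.0255, 0.0262 and 0.0522 with JQ1 and 0.244, 0.167 and 0.185 with vehicle. The oxidase was lowest relative to the acetyltransferase with JQ1 and highest with FIDAS-5. ODC1 over SRM was 0.915, 0.921 and 0.946 with FIDAS-5, 5.01, 4.25 and 3.70 with JQ1 and 0.793, 2.86 and 0.932 with vehicle, vehicle replicate 2 standing apart from its companions. SAT1 over SRM was 0.790, 1.03 and 0.511 with FIDAS-5, 8.51, 7.33 and 3.22 with JQ1 and 0.505, 1.63 and 0.530 with vehicle, with all JQ1 libraries above all the others. ODC1 over OAZ1 was 0.376, 0.305 and 0.389 with FIDAS-5, 0.497, 0.472 and 0.451 with JQ1 and 0.351, 0.476 and 0.438 with vehicle. AHCY over AHCYL1 was 1.83, 2.05 and 2.30 with FIDAS-5, 2.95, 3.52 and 5.12 with JQ1 and 3.079, 2.33 and 2.503 with vehicle. For these last pairs, ODC1 over OAZ1 and AHCY over AHCYL1, JQ1 and vehicle libraries overlapped.

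**Figure D5:**
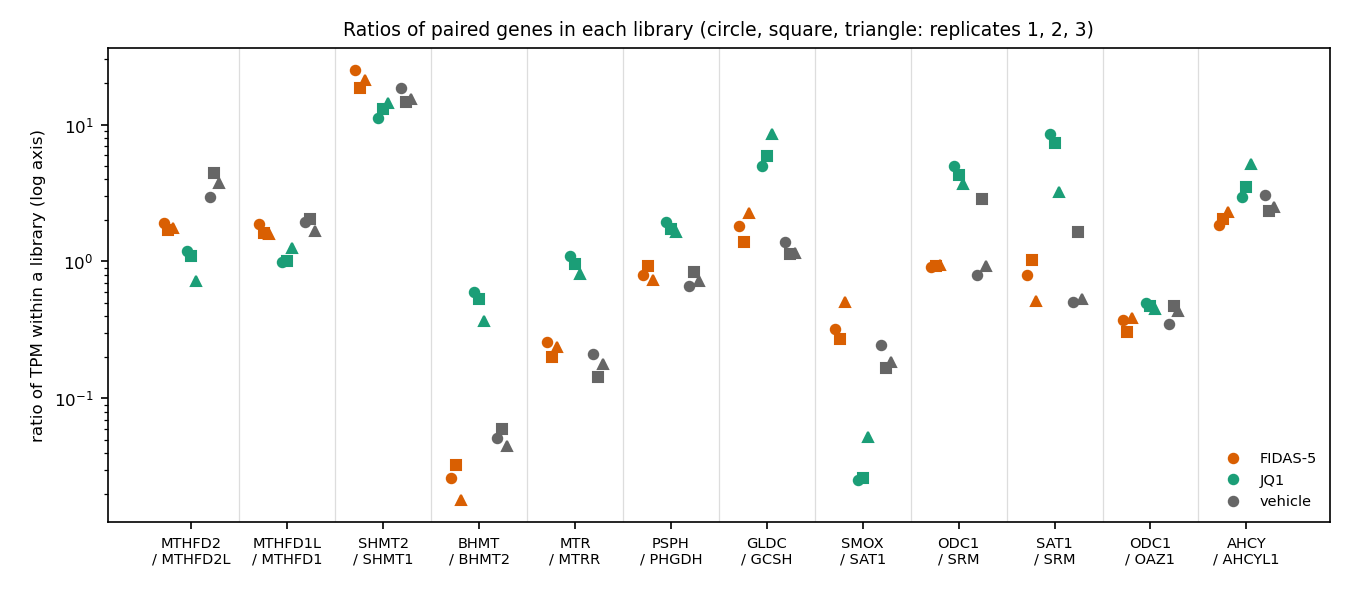
Ratio of TPM (vertical axis, log scale) of 12 pairs of genes within each library, with FIDAS-5, JQ1 and vehicle in that order within each pair; circles, squares and triangles are replicates 1, 2 and 3. JQ1 and vehicle libraries overlap for ODC1 over OAZ1 and AHCY over AHCYL1 and are separate in the other pairs drawn; for ODC1 over SRM vehicle replicate 2 stands nearest to the JQ1 libraries.

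Summed by role, mitochondrial folate transcripts held 159 to 213 TPM with FIDAS-5, 127 to 132 TPM with JQ1 and 193 to 235 TPM with vehicle. Those of polyamine acetylation and oxidation held 92.5 to 128 TPM with FIDAS-5, 175 to 371 TPM with JQ1 and 80.3 to 106 TPM with vehicle. JQ1 libraries stood apart from vehicle in both, below it for folate and above it for polyamine breakdown. Transsulfuration held 47.1 to 52.6 TPM with FIDAS-5, 21.9 to 27.4 TPM with JQ1 and 43.04 to 50.2 TPM with vehicle, and glycine cleavage 61.02 to 73.1 TPM with FIDAS-5, 106 to 137 TPM with JQ1 and 69.1 to 84.9 TPM with vehicle. Cytosolic folate was lower in every treated library, at 17.8 to 20.8 TPM with FIDAS-5 and 18.7 to 21.5 TPM with JQ1, than in every vehicle library, at 25.2 to 26.2 TPM. Polyamine synthesis, at 349.5 to 463 TPM with FIDAS-5, 324 to 425 TPM with JQ1 and 406 to 439.7 TPM with vehicle, overlapped between JQ1 and vehicle, ODC1 being higher and SRM and SMS lower with JQ1.

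Of the enzymes that make SAM, MAT2A, the target of FIDAS-5, averaged 78.7 ± 9.66 TPM with FIDAS-5, 85.7 ± 11.04 TPM with JQ1 and 95.5 ± 15.4 TPM with vehicle (SD, n = 3 each) and was called in no comparison. An inhibitor acts on the protein, so this level is no check of the treatment. MAT2B, its regulatory subunit, averaged 16.5 ± 3.89 TPM with FIDAS-5, 19.7 ± 6.29 TPM with JQ1 and 28.2 ± 3.27 TPM with vehicle, not called (log2 fold change -0.76 with SE 0.26, adjusted p = 0.073 with FIDAS-5). MAT1A, the form of normal liver, averaged 3.98 ± 0.624 TPM with FIDAS-5, 2.27 ± 0.130 TPM with JQ1 and 2.33 ± 0.315 TPM with vehicle, and it rose with FIDAS-5 (log2 fold change 0.58 with SE 0.13, adjusted p = 0.0159).

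The wider pathways were counted on lists of neighbouring genes, to be read beside the shares over all tested genes, 12.6% higher and 7.60% lower with FIDAS-5, and 19.0% higher and 19.4% lower with JQ1; the median log2 fold changes of all tested genes were -0.02 with FIDAS-5 and -0.01 with JQ1. Of 13 tested genes of the rest of the folate cycle and folate transport, 2 rose and 3 fell with FIDAS-5, 4 rose and 6 fell with JQ1, and 5 differed between the compounds, where 34.8% of all tested genes did. Their median log2 fold changes were -0.30 with FIDAS-5 and 0.06 with JQ1. TYMS, thymidylate synthase, fell to 19.2 ± 1.95 TPM with FIDAS-5 and 39.2 ± 5.55 TPM with JQ1, against 52.3 ± 3.37 TPM with vehicle (log2 fold change -1.40 with SE 0.14, adjusted p = 0.000284 for FIDAS-5; log2 fold change -0.41 with SE 0.14, adjusted p = 0.0454 for JQ1). With FIDAS-5, SLC46A1, a folate transporter, rose and GART, a purine synthesis enzyme, fell. ATIC, which uses formyl folate for purines, fell with JQ1 (log2 fold change -0.95 with SE 0.11, adjusted p = 0.000271), and QDPR, which recycles tetrahydrobiopterin, rose (log2 fold change 0.93 with SE 0.12, adjusted p = 0.000472).

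Cobalamin is the cofactor of MTR, and of 10 tested genes that handle it 3 rose with FIDAS-5 (TCN2, ABCD4 and AMN), and 2 rose and 3 fell with JQ1 (of all tested genes, 12.6% rose with FIDAS-5, and 19.0% rose and 19.4% fell with JQ1), with medians of 0.10 with FIDAS-5 and 0.22 with JQ1. AMN, part of the receptor for cobalamin uptake in gut and kidney, averaged 5.06 ± 0.272 TPM with FIDAS-5, 33.01 ± 1.36 TPM with JQ1 and 2.28 ± 0.665 TPM with vehicle, and rose with both compounds (log2 fold change 0.90 with SE 0.16, adjusted p = 0.00457 for FIDAS-5; log2 fold change 3.40 with SE 0.16, adjusted p = 5.37e-06 for JQ1). Its partner CUBN averaged 0.0848 TPM with FIDAS-5, 0.106 TPM with JQ1 and 0.119 TPM with vehicle. TCN2, the carrier of cobalamin in blood, rose with FIDAS-5 (log2 fold change 1.37 with SE 0.17, adjusted p = 0.000837), and MMADHC, which routes cobalamin inside the cell, fell with JQ1 (log2 fold change -1.04 with SE 0.25, adjusted p = 0.0108). Of 12 other polyamine genes, 2 rose with FIDAS-5, and 4 rose and 4 fell with JQ1, with medians of 0.35 with FIDAS-5 and -0.175 with JQ1. SAT2, a relative of SAT1, averaged 8.17 ± 0.411 TPM with FIDAS-5, 15.2 ± 1.93 TPM with JQ1 and 5.02 ± 0.821 TPM with vehicle and rose with both (log2 fold change 0.61 with SE 0.14, adjusted p = 0.0164 for FIDAS-5; log2 fold change 1.43 with SE 0.14, adjusted p = 0.000127 for JQ1). SLC47A1, an exporter of organic cations, rose with both as well (log2 fold change 1.53 with SE 0.12, adjusted p = 8.21e-05 for FIDAS-5; log2 fold change 0.93 with SE 0.12, adjusted p = 0.000492 for JQ1). OAT, which links ornithine to glutamate, averaged 134 ± 60.6 TPM with JQ1 and 44.9 ± 11.2 TPM with vehicle. OAT rose with JQ1 (log2 fold change 1.46 with SE 0.39, adjusted p = 0.0161). The 4 genes of this list that fell with JQ1 were ARG1, SLC18B1, EIF5A and OAZ3. For ARG1 the log2 fold change was -1.66 with SE 0.35 (adjusted p = 0.00537). For SLC18B1 it was -1.70 with SE 0.31 (adjusted p = 0.0028).

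Of 12 genes of cysteine, taurine and glutathione metabolism, 3 rose with FIDAS-5 (GSR, SQOR and TST), and 3 rose and 1 fell with JQ1 (of all tested genes, 12.6% rose with FIDAS-5, and 19.0% rose and 19.4% fell with JQ1), with medians of 0.105 with FIDAS-5 and 0.06 with JQ1. TST, a sulfur transferase, rose with both compounds (log2 fold change 0.87 with SE 0.12, adjusted p = 0.00172 for FIDAS-5; log2 fold change 1.48 with SE 0.12, adjusted p = 5.91e-05 for JQ1), GSS, glutathione synthetase, rose with JQ1 (log2 fold change 1.08 with SE 0.11, adjusted p = 0.000151), and SLC7A11, the cystine importer, fell with JQ1 (log2 fold change -1.86 with SE 0.24, adjusted p = 0.000479). Of 11 transporters of methionine, serine and glycine, 4 rose with FIDAS-5, and 4 rose and 3 fell with JQ1, beside those same shares of all genes, with medians of 0.56 with FIDAS-5 and 0.26 with JQ1. SLC3A2, the shared heavy chain of several amino acid exchangers, averaged 418 ± 119 TPM with FIDAS-5, 147 ± 1.30 TPM with JQ1 and 123 ± 14.4 TPM with vehicle, and rose with FIDAS-5 (log2 fold change 1.71 with SE 0.21, adjusted p = 0.000819). SLC43A1, a carrier of large neutral amino acids, rose with both (log2 fold change 0.84 with SE 0.14, adjusted p = 0.00379 for FIDAS-5; log2 fold change 1.46 with SE 0.14, adjusted p = 0.000113 for JQ1), and SLC1A5, a carrier of glutamine and serine, fell with JQ1 (log2 fold change -1.69 with SE 0.21, adjusted p = 0.000379). Of 11 other genes of serine, glycine, choline and creatine, 2 fell with FIDAS-5 (SRR and CHKA; 7.60% of all tested genes fell), and 5 rose and 2 fell with JQ1, CHKB, a choline kinase, rising there (log2 fold change 0.84 with SE 0.13, adjusted p = 0.00123).

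Several genes of the set, among them PHGDH, PSAT1, SHMT2, MTHFD2 and ALDH1L2, are known targets of ATF4, the factor of the amino acid stress response. PSPH, which follows PHGDH and PSAT1 in serine synthesis, rose with JQ1. Of 12 regulators and targets on the list of this response, 4 rose with FIDAS-5 (ATF3, CHAC1, SESN2 and PCK2). With JQ1, 3 rose (ATF3, SESN2 and PCK2) and 4 fell (ATF4, CEBPB, TRIB3 and DDIT4). Of all tested genes, 12.6% rose with FIDAS-5, and 19.0% rose and 19.4% fell with JQ1. The medians of the list were 0.18 with FIDAS-5 and 0.04 with JQ1. SESN2 and ATF3 rose with JQ1 (log2 fold changes 1.045 with SE 0.20 and 0.83 with SE 0.18, adjusted p = 0.00395 and 0.00704). ATF4 averaged 282 ± 23.9 TPM with FIDAS-5, 222 ± 33.5 TPM with JQ1 and 347 ± 31.9 TPM with vehicle and fell with JQ1 (log2 fold change -0.65 with SE 0.15, adjusted p = 0.00869). TRIB3, a target of ATF4, fell with JQ1 (log2 fold change -1.76 with SE 0.26, adjusted p = 0.000965), and CHAC1, another, rose with FIDAS-5 (log2 fold change 0.91 with SE 0.15, adjusted p = 0.00375). ASNS, asparagine synthetase, was called in no comparison and averaged 57.3 ± 10.8 TPM with FIDAS-5, 58.6 ± 11.1 TPM with JQ1 and 53.1 ± 7.83 TPM with vehicle. Both vehicle comparisons share their controls, so these lists are set side by side and not compared by overlap.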

How the data were processed

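Sequencing covered total RNA of Huh7 cells in 9 libraries, 3 per group, grouped by the sample titles. The authors deposited TPM for each gene symbol, made with Salmon on build hg38 according to the submitters' processing notes; the Salmon version and the annotation are not given in the sources used here. TPM keeps no counts, so depth and counting error are unknown, and strand is not stated. All 13573 of 27800 symbols that reached 1 TPM in 3 or more libraries were fitted as log2(TPM + 1) with limma 3.58.1 (R 4.3.3), taking a mean for each of the 3 groups over all 9 libraries, without a trend in the moderation, which left 6 residual and added 2.86 prior degrees of freedom. Deviations from group means correlated at 0.26, 0.102 and 0.422 between FIDAS-5 and JQ1 libraries of the same number. The labels do not say what a number marks. Libraries of unlike number were not compared, and replicates 1 and 3 of both compounds had like GC trends. These correlations therefore cannot show that the numbers mark pairs. The main fit had no block, and blocked values are given where they change a call. Tests were two-sided, and p-values were adjusted by Benjamini-Hochberg over all genes tested in each of 3 comparisons, with a threshold of 0.05. Positions and promoter windows came from RefSeq GRCh38.p14, matched by symbol; windows on chromosome 8 were left out of the search. Each tested gene's GC content was its median over GENCODE transcripts (13042 genes had one). The fitting script was tested on simulated data. Figures were drawn with matplotlib 3.10.9 in Python 3.11.15.

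The genes, roles and other lists were chosen with earlier results of these data known, and no list was tested as a set. Statistics are given for genes called in at least 1 comparison, by smallest adjusted p up to 30, and for others where they complete a step. From each other list up to 3 called genes with the smallest adjusted p were named, with MAT2A, MAT2B, MAT1A, HEXIM1 and MYC, and others of that list were named after their values were seen. Alternatives were a pseudocount of 0.1, no filter, a filter at 5 TPM, quantile normalization, median-of-ratios scaling, fits of the 6 libraries of each comparison alone, a block for the replicate number and leaving out each library. Chosen after seeing the data were removal of a lowess trend on GC content, protein-coding genes rescaled alone, and leaving out the third library of both compounds. Some genes of the list of the rest of the folate cycle are counted in it but not reported here by name.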

Additional observations from a re-analysis of the deposited data

How the results depend on the processing

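Counts with FIDAS-5 against vehicle depended most on the setting. Against 2 genes that rose and 4 that fell among the 47, median-of-ratios scaling gave 4 and 8, quantile normalization 3 and 9, GC trend removal 7 and 11, protein-coding genes alone 8 and 8, and a filter at 5 TPM 1 and 4. Leaving out 1 library gave 1 to 4 that rose and 1 to 9 that fell. Over all genes the 2742 calls became 4416 with the GC trend removed and 1461 (without FIDAS-5 replicate 3) to 3304 (without JQ1 replicate 3) with a library left out. With JQ1 against vehicle, 11 to 15 rose and 14 to 19 fell across the settings that kept all libraries of the comparison or left out the third of both compounds, and 9 to 13 and 12 to 16 with a library left out. In JQ1 against FIDAS-5 the 4726 calls over all genes became 2991 with the filter at 5 TPM, where fewer genes were tested. The cause of the other shifts was not tested. Across the 19 alternatives, or 18 for genes that the filter at 5 TPM removed, 2 of the 6 calls with FIDAS-5 were kept (MTHFD1L and SMOX), 19 of the 29 with JQ1 (3 of them, BHMT, NNMT and ALDH1L2, under 18) and 18 of the 22 between the compounds (4 of them, the same genes and DOHH, under 18), and 17, 7 and 8 genes in these comparisons were called under some alternative only. The 17 with FIDAS-5 were ADI1, AGMAT, ALDH1L2, APIP, BHMT2, CHDH, DOHH, ENOPH1, GCSH, MTHFD2, MTHFD2L, MTRR, OAZ2, PAOX, SARDH, SHMT2 and SMS. The 7 with JQ1 were AHCY, AHCYL2, AZIN1, DOHH, ENOPH1, GCSH and PAOX. The 8 between the compounds were AHCYL2, AMD1, AMT, APIP, CHDH, MTAP, PHGDH and SHMT2. No called value changed sign. In 70 of 2661 values a sign changed where neither value was called, the largest original size being 0.267 on the log2 scale. Deviations of vehicle libraries correlated with those of treated libraries of the same number at -0.0765 to 0.16. The numbers were not taken as pairs in the main fit. The replicate block gave 3 that rose and 4 that fell with FIDAS-5 (1755 and 1136 over all genes), 12 and 17 with JQ1 and 10 and 13 between the compounds; it ended the JQ1 call of GAMT (adjusted p = 0.0568) and added calls of DOHH with FIDAS-5 (adjusted p = 0.0152), GCSH with JQ1 (adjusted p = 0.0418) and MTAP between the compounds (adjusted p = 0.02), and changed no other call among the 47. TPM leaves depth, and so the smallest detectable difference, unknown.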
